A study of Mus musculus with 6 samples.

Results

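The genes described here encode the heterotrimeric G proteins and the regulators of G protein signalling (RGS) in the mouse hippocampus. They were the rows of the count table whose symbols name a Gα, Gβ or Gγ subunit or a numbered RGS protein, with 1 RGS gene and pseudogenes left out by rule, which gave 44 of 20620 genes. There were 13 Gα genes, 4 Gβ genes, 10 Gγ genes and 17 RGS genes, and all 44 passed the filter on low counts. RNA was sequenced from the hippocampus of 6 male C57BL/6J mice, 1 library per mouse. The 3 n-Braf mice (Braf Q241R/+ ;CaMKII-Cre, 32 to 34 weeks old) carried the activating Q241R allele of the kinase BRAF together with a CaMKII-Cre transgene, which places the mutant in mature excitatory neurons by the study's design. The 3 control mice (Braf Q241R Neo/+, 31 to 32 weeks old) carried the same allele with its Neo cassette still in place and no Cre. Both groups therefore had a Q241R allele, and effects of the mutant protein, of Cre and of the cassette cannot be told apart. Wild-type hippocampus was not analysed here.

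A heterotrimeric G protein joins a seven-helix receptor at the cell surface to enzymes and channels inside the cell. The receptor loads GTP onto the Gα subunit, Gα and the Gβγ pair separate, and each acts on its own effectors until Gα hydrolyses its GTP. RGS proteins speed up that hydrolysis and so shorten the signal. In the hippocampus these proteins stand behind the slow responses to glutamate, GABA, acetylcholine, serotonin, adenosine and opioids, while BRAF belongs to the RAS-ERK pathway that many of the same receptors also feed.

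Library totals were 30152839 to 31832245 expected counts in n-Braf and 25227112 to 27608256 in control. Braf itself had 184 to 205 CPM across n-Braf libraries and 116 to 123 CPM across control libraries (log2 fold change 0.69, edgeR quasi-likelihood adjusted p = 0.0533). CPM are counts relative to the library total after scaling by trimmed means of M values (TMM), and log2 fold changes are n-Braf over control. Summed levels of 10 choroid plexus markers were 87.7 to 105 CPM in n-Braf and 137 to 3498 CPM in control, with controls 1 and 2 the highest. A list of 8 markers of CA1 pyramidal neurons summed to 492 to 576 CPM in n-Braf and 438 to 475 CPM in control, 8 astrocyte markers to 4840 to 4936 CPM in n-Braf and 4280 to 4585 CPM in control, and no marker of these 3 lists was at 0. The astrocyte sum was mostly Slc1a2, which averaged 3661 CPM in n-Braf libraries and 3282 CPM in control libraries, and 2 of the 8 astrocyte markers were lower in n-Braf. Oligodendrocyte markers summed to 1500.0 to 2042 CPM in n-Braf and 1772 to 2274 CPM in control, and 10 of 10 had a log2 fold change below 0 (median -0.31). Dentate granule neuron markers overlapped, at 247 to 477 CPM in the n-Braf libraries and 314 to 381 CPM in the control libraries, with n-Braf 3 the highest library. The sums of n-Braf 1 and 2, 247 and 282 CPM, lay below every control. Of the 8 dentate markers 7 had a log2 fold change below 0 (median -0.22). The part of these differences in the values below was not tested. In whole tissue, fewer cells of a type and less RNA per cell cannot be told apart.

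No G protein or RGS gene passed the test between n-Braf and control hippocampus, and most log2 fold changes were small. By edgeR's quasi-likelihood test 0 of the 44 genes passed an adjusted p of 0.05, as did 0% of all 20604 genes tested. At an unadjusted p under 0.05 there were 3 members, all higher in n-Braf, which is 6.82% of the 44 and the same share as the 6.82% of all genes. The libraries of the groups did not overlap in 5 members, 4 higher and 1 lower in n-Braf, which is 11.4% against 11.5% of all genes (6.09% higher and 5.44% lower). Both shares were near those of the whole transcriptome. DESeq2 called 0 members, against 0.429% of the genes to which it gave an adjusted p. An adjusted p under 0.05 stood beside 29 genes in the authors' deposited table, of which 0 were members, and the lowest adjusted p of a member in the authors' deposited table was 0.787, for Rgs8.

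**Figure D1:**
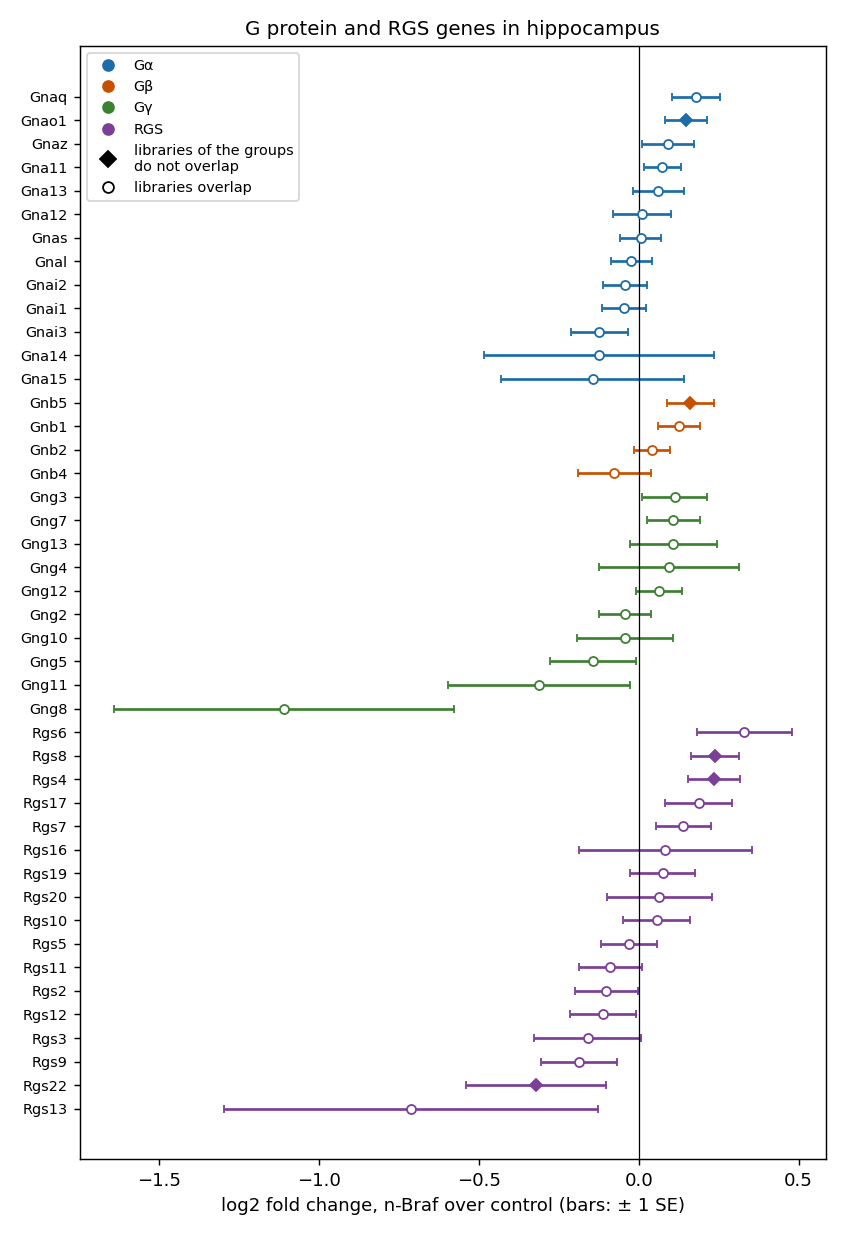
Log2 fold change, n-Braf over control, of each of the 44 genes by family, with bars of 1 standard error; filled diamonds mark the 5 genes whose libraries do not overlap between the groups. Most values lie close to 0, and the widest bars belong to the genes with few counts, such as Gng8 and Rgs13.

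The members nearest to a difference were Rgs8 and Rgs4, a pair of RGS genes of the R4 subfamily, which are small proteins with little beyond the RGS domain. Both were higher in n-Braf by a fold of 1.18. RGS8, known from Purkinje cells, and RGS4, abundant in forebrain neurons, act on Gi/o and Gq proteins. Each had 3 n-Braf libraries above the 3 controls. The sequence before their transcription starts is shown together with that of Rgs2, a gene of the same subfamily and chromosome whose log2 fold change was -0.10, to set the DNA before these starts side by side; TGACG is the core of the cAMP response element. The sequences are RefSeq promoters on GRCm38.p6, 250 bases up to the start, 5′ to 3′ on the gene's strand, and capitals mark TGACG or its reverse complement CGTCA. RefSeq gives Rgs8 3 starts, of which the most upstream is shown; TGACG stands before this start and before neither of the other 2. Of the 10 GENCODE transcripts of Rgs8, 0 begin at exactly the start shown and 1 begins at each of the others. For Rgs2 0 of 4 GENCODE transcripts begin at exactly the start shown, and for Rgs4 2 of 3 do.
Rgs8 (chr1:153652787-153653036, plus strand): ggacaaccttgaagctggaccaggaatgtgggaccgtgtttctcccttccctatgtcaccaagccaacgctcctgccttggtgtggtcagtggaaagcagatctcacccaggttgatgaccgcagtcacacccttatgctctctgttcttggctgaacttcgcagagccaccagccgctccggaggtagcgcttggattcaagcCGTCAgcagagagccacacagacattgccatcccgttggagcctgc
Rgs4 (chr1:169747643-169747892, minus strand): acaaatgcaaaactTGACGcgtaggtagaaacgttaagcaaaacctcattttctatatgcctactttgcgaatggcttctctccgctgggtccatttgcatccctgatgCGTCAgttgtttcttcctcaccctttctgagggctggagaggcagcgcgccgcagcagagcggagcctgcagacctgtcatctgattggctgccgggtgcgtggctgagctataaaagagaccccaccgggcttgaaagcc
Rgs2 (chr1:144004150-144004399, minus strand): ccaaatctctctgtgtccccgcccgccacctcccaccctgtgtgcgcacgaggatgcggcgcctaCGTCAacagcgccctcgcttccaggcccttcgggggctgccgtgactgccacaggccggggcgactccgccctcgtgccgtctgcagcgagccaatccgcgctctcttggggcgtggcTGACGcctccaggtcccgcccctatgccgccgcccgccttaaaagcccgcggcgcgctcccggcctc

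The Rgs8 window held TGACG at 46 bases before the start, and the Rgs4 window at 236 and 141 bases before it. In the Rgs2 window it stood 185 and 67 bases before the start. The shared motif thus rests, for Rgs8, on 1 of 3 windows. Promoters were found for 36 of the 44 members. On either strand, 10 of their 49 promoters held TGACG (20.4%), against 17.8% of 32851 promoters of the same length. The median GC content was 61.2% in member promoters and 52.4% in all promoters, and these shares were not matched for it. The 10 promoters with TGACG belong to 8 genes (Gnas, Gnb1, Gng4, Gng7, Rgs12, Rgs2, Rgs4 and Rgs8). Among them, the Gnas windows starting at 174327499 and 174327518 overlap and hold the same site. The full element TGACGTCA was in 1.55% of all promoters and in those of 0 member genes. The AP-1 site TGACTCA was in 4.46% of all promoters and in those of 2 member genes (Rgs12 and Rgs17), the ETS site CCGGAAGT in 2.88% and 1 member gene (Gnai3), and the EGR site GCGTGGGCG in 0.536% and 0 member genes. Of the genes with TGACG, Gnas, Gnb1, Gng4, Gng7, Rgs4 and Rgs8 had log2 fold changes above 0, and Rgs12 and Rgs2 below. Above 0 were 54.5% of all members and 49.0% of all genes. Gnas and Gng4 each had the other sign in 5 alternative analyses. A link between the motif and the direction was not tested.

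Rgs8 was at 56.7, 54.1 and 58.7 CPM in n-Braf libraries 1 to 3, against 45.8, 52.2 and 45.7 CPM in control libraries 1 to 3. Control 2 was the control nearest to the n-Braf libraries. The mean was 56.5 ± 2.31 CPM in n-Braf and 47.9 ± 3.72 CPM in control (SD, n = 3 each), a log2 fold change of 0.24 (SE 0.07, unadjusted p = 0.0112, quasi-likelihood adjusted p = 0.594). The gene (ENSMUSG00000042671) lies on chromosome 1 at 153653025 to 153700323 of GRCm38, the build of all coordinates given here. Rgs8 kept a positive log2 fold change in all 21 alternative analyses, between 0.15 and 0.31, with the lowest value when age was a covariate.

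Rgs4 was at 121, 127 and 110 CPM in n-Braf libraries 1 to 3, against 104, 92.1 and 108 CPM in control libraries 1 to 3. The lowest n-Braf library and the highest control library were close to each other. The mean was 119 ± 8.63 CPM in n-Braf and 101 ± 8.15 CPM in control (SD, n = 3 each), a log2 fold change of 0.24 (SE 0.08, unadjusted p = 0.0169, quasi-likelihood adjusted p = 0.640). The gene (ENSMUSG00000038530) lies on chromosome 1 at 169741477 to 169747642. Against control 3 alone its log2 fold change was 0.15, and with age as a covariate it was 0.39. Markers of neocortex summed to 265 to 338 CPM in n-Braf and to 259 to 320 CPM in control, and with their mean as a covariate Rgs4 had a log2 fold change of 0.19.

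**Figure D2:**
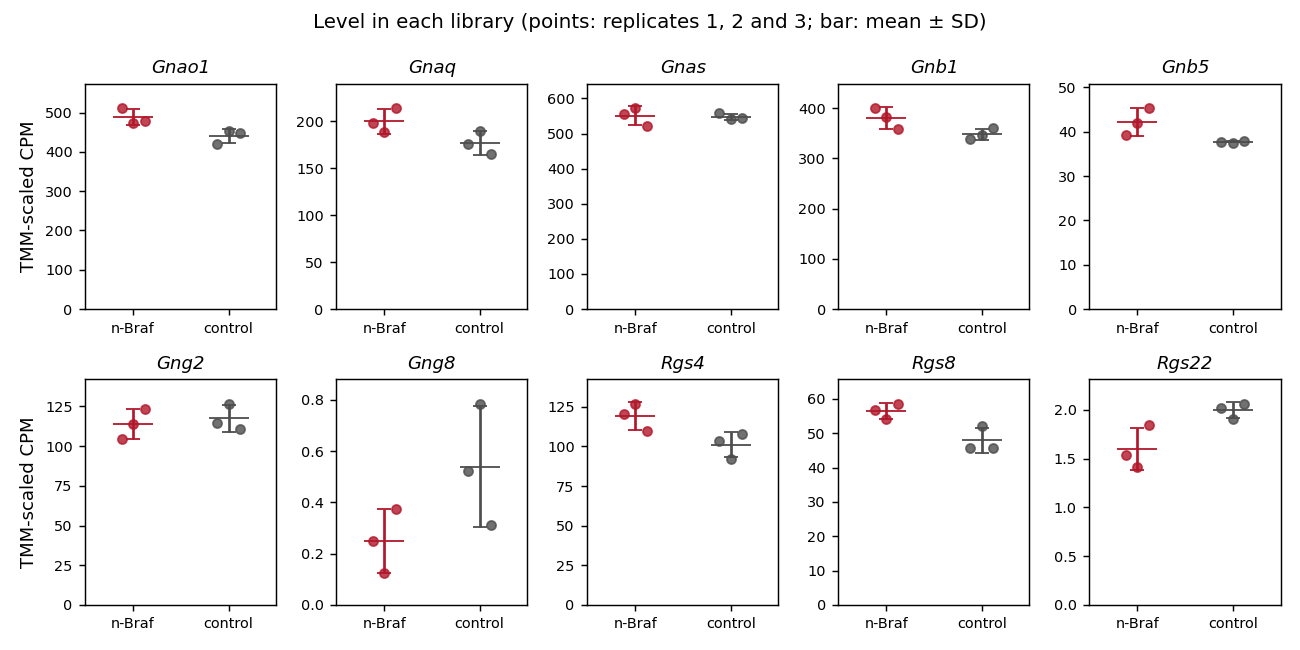
TMM-scaled CPM of 10 genes in each library, n-Braf left of control, with the 3 replicates as points in the order 1 to 3 and the mean ± SD as bars; each panel has its own axis from 0. The n-Braf libraries lie above the controls for Gnao1, Gnb5, Rgs4 and Rgs8 and below them for Rgs22.

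Of the R4 genes other than Rgs8 and Rgs4, only Rgs16 had a log2 fold change above 0, at 0.08 (SE 0.27), and it was at -0.18 without n-Braf 2. Rgs2, which prefers Gq and is induced by neuronal activity, had 17.7 ± 0.877 CPM in the n-Braf libraries and 19.0 ± 1.71 CPM in the control libraries (SD, n = 3 each; log2 fold change -0.10, SE 0.10, quasi-likelihood adjusted p = 0.914). Rgs5, a marker of pericytes, averaged 75.3 ± 7.04 CPM in n-Braf and 76.9 ± 6.09 CPM in control, while pericyte and vascular muscle markers summed to 97.1 to 173 CPM in n-Braf and 92.0 to 175 CPM in control. Rgs16 lay at 2.60 to 4.53 CPM across n-Braf libraries and 2.32 to 3.88 CPM across control libraries, and Rgs3 at 11.5 to 14.3 CPM in the n-Braf libraries and 11.5 to 17.98 CPM in the control libraries. Rgs13, known from B cells and mast cells, had 4 to 13 counts in n-Braf libraries and 6 to 22 counts in control libraries. Of the 7 R4 genes 3 were above 0 and 4 below, and the median log2 fold change was -0.03.

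The R7 subfamily binds Gβ5 in place of a Gγ subunit, and the partners are stable only together. Gnb5, the gene of Gβ5, was at 39.3, 41.9 and 45.4 CPM in n-Braf libraries 1 to 3, against 37.7, 37.5 and 37.8 CPM in control libraries 1 to 3. The controls were almost identical, and every n-Braf library lay above them, with n-Braf 3 the highest. The mean was 42.2 ± 3.05 CPM in n-Braf and 37.7 ± 0.136 CPM in control (SD, n = 3 each), a log2 fold change of 0.16 (SE 0.07, unadjusted p = 0.0539, quasi-likelihood adjusted p = 0.739). Gnb5 (ENSMUSG00000032192) lies on chromosome 9 at 75306288 to 75345876, and 7.96% of its exon bases overlap an antisense gene. Without n-Braf 3, and likewise with age as a covariate, the log2 fold change of Gnb5 was 0.10.

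The R7 genes themselves had log2 fold changes on both sides of 0. Rgs6 had the largest positive log2 fold change of all members, 0.33 (SE 0.15, quasi-likelihood adjusted p = 0.735), at 14.7, 12.1 and 11.4 CPM in n-Braf libraries 1 to 3, against 10.4, 8.45 and 11.6 CPM in control libraries 1 to 3. The groups overlapped through n-Braf 3 and control 3, and against control 3 alone the log2 fold change was 0.14. Without n-Braf 1, or without control 2, it was 0.21. Rgs7, the most abundant R7 gene per exon length, had 84.1 to 89.5 CPM in the n-Braf libraries and 70.5 to 88.0 CPM in the control libraries (log2 fold change 0.14, SE 0.09), and it was at -0.06 with the choroid plexus covariate. Rgs9, known from striatum and retina, and Rgs11 stood at log2 fold changes of -0.19 with an SE of 0.12 and of -0.09 with an SE of 0.10. Striatal markers reached 115 to 126 CPM in the n-Braf libraries and 117 to 124 CPM in the control libraries. Most of this sum was Pde10a, whose mean was 89.4 CPM for n-Braf against 80.3 CPM for control (log2 fold change 0.15). Ppp1r1b went the other way, averaging 18.3 CPM for n-Braf against 29.3 CPM for control (log2 fold change -0.68). It was at 38.6, 29.6 and 19.7 CPM in control libraries 1 to 3, and control 3 lay close to n-Braf 1 at 19.4 CPM. Neither gene's libraries overlapped between the groups, and of the 8 markers 5 were higher and 3 lower in n-Braf. Rgs7bp and Gpr158, which anchor R7 complexes at the membrane, averaged 321 ± 26.8 CPM in the n-Braf libraries and 292 ± 24.8 CPM in the control libraries for Rgs7bp, and for Gpr158 138 ± 3.51 CPM in the n-Braf libraries and 126 ± 5.16 CPM in the control libraries (SD, n = 3 each), with adjusted p-values of 0.843 and 0.748 from edgeR's quasi-likelihood test. These 2 partners were named after their values were seen.

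The remaining RGS genes showed small differences. The RZ subfamily, which can act on Gz, had 3 of 3 genes above 0, although Rgs20 was below 0 in 5 of the 21 alternatives. Its most abundant member by CPM, Rgs17, was at 69.0, 71.2 and 56.6 CPM in n-Braf libraries 1 to 3, against 53.9, 54.2 and 64.7 CPM in control libraries 1 to 3 (log2 fold change 0.19, SE 0.11), and n-Braf 3 lay below control 3. Rgs19 and Rgs20 had log2 fold changes of 0.07 and 0.07. Of the R12 subfamily, Rgs10, which microglia and neurons express, had 13.6 ± 1.35 CPM in the n-Braf libraries and 13.1 ± 0.239 CPM in the control libraries, and Rgs12 had 22.8 ± 2.17 CPM in the n-Braf libraries and 24.7 ± 2.198 CPM in the control libraries (SD, n = 3 each). Microglia markers summed to 124 to 173 CPM in n-Braf and 148 to 187 CPM in control.

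Rgs22, known mainly from testis, was the 1 member whose n-Braf libraries all lay below the controls. It was at 1.53, 1.42 and 1.84 CPM in n-Braf libraries 1 to 3, against 2.01, 1.91 and 2.06 CPM in control libraries 1 to 3 (log2 fold change -0.32, SE 0.22, unadjusted p = 0.174, quasi-likelihood adjusted p = 0.852). The counts behind these levels were 49, 45 and 54 in n-Braf and 54, 51 and 53 in control, so the counts overlapped and the levels separated after scaling for the deeper n-Braf libraries. A list of 6 ependymal markers summed to 15.2 to 19.2 CPM in n-Braf and 25.8 to 50.8 CPM in control, and the part of these cells in the Rgs22 value was not tested. Without any 1 library the log2 fold change of Rgs22 lay between -0.44 and -0.24.

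Among the Gα genes, those of Go and Gq were higher in n-Braf without passing the threshold. Gnao1 encodes Gαo, the main Gα of neuronal membranes. It was at 512, 473 and 480 CPM in n-Braf libraries 1 to 3, against 419, 453 and 449 CPM in control libraries 1 to 3. The groups did not overlap. The mean was 488 ± 20.9 CPM in n-Braf and 441 ± 18.5 CPM in control (SD, n = 3 each), a fold of 1.11 (log2 fold change 0.15, SE 0.07, unadjusted p = 0.0508, quasi-likelihood adjusted p = 0.732). Gnao1 (ENSMUSG00000031748) lies on chromosome 8 at 93809966 to 93969388.

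Gnaq encodes Gαq, which activates phospholipase C-β downstream of group I metabotropic glutamate and muscarinic receptors. It was at 198, 188 and 214 CPM in n-Braf libraries 1 to 3, against 175, 190 and 165 CPM in control libraries 1 to 3. Control 2 lay just above n-Braf 2, so the groups overlapped. The mean was 199.9 ± 13.2 CPM in n-Braf and 177 ± 12.4 CPM in control (SD, n = 3 each), a fold of 1.13 (log2 fold change 0.18, SE 0.08, unadjusted p = 0.0433, quasi-likelihood adjusted p = 0.730). Gnaq (ENSMUSG00000024639) lies on chromosome 19 at 16132831 to 16387463. With age as a covariate the log2 fold change was 0.04, and against control 3 alone it was 0.28. Ages met only at 32 weeks between the groups, so age and group cannot be fully told apart. The oldest mouse, n-Braf 3 at 34 weeks, had the highest Gnaq and the highest dentate marker sum. The part of age or of dentate content in the Gnaq value was not tested.

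The other Gα genes stayed within 0.15 of 0 on the log2 scale, as did Gnao1 at 0.148. Farthest from 0 among these others was Gna15, at -0.143 (SE 0.29). Gna11, which encodes the close relative of Gαq, had 71.9 to 76.3 CPM in the n-Braf libraries and 68.7 to 72.2 CPM in the control libraries (log2 fold change 0.07, SE 0.06). Gna14 and Gna15, Gq family genes known from other tissues and from blood cells, had 18 to 26 and 28 to 39 counts in n-Braf libraries, against 13 to 29 and 26 to 36 counts in control libraries. The 3 genes of the inhibitory Gαi subunits were each slightly lower in n-Braf: Gnai1 had a log2 fold change of -0.05 (SE 0.07), Gnai2 of -0.04 (SE 0.07) and Gnai3 of -0.12 (SE 0.09), and none had groups that did not overlap. Gnai1 was above 0 in 2 of the 21 alternatives. Gnaz, whose product is a Gi family member that resists pertussis toxin, was at 0.09 (SE 0.08). Gna12 and Gna13, which form a class of their own, were at 0.01 (SE 0.09) and 0.06 (SE 0.08).

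Gnas, the gene of the stimulatory Gαs and the member with the highest CPM, was at 557, 573 and 521 CPM in n-Braf libraries 1 to 3, against 558, 542 and 544 CPM in control libraries 1 to 3. The groups overlapped completely. The mean was 550.2 ± 26.9 CPM in n-Braf and 548 ± 8.86 CPM in control (SD, n = 3 each), a log2 fold change of 0.0064 (SE 0.06, quasi-likelihood adjusted p = 0.996). Gnas (ENSMUSG00000027523) lies on chromosome 2 at 174284320 to 174346744, an imprinted locus with several promoters, and its count was not whole in all 6 libraries. Gnal, the gene of the Gαs relative Gαolf known from striatum and olfactory neurons, had 88.7 to 91.4 CPM in the n-Braf libraries and 85.3 to 96.6 CPM in the control libraries (log2 fold change -0.02, SE 0.06).

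Of the Gβ genes, Gnb1 carried most of the family. Gnb1 was at 401, 382 and 358 CPM in n-Braf libraries 1 to 3, against 338, 347 and 360 CPM in control libraries 1 to 3. Only n-Braf 3 lay within the control range. The mean was 380.4 ± 21.5 CPM in n-Braf and 349 ± 11.01 CPM in control (SD, n = 3 each), a log2 fold change of 0.13 (SE 0.07, quasi-likelihood adjusted p = 0.796). Gnb1 (ENSMUSG00000029064) lies on chromosome 4 at 155491361 to 155559269. Its log2 fold change was 0.07 with the choroid plexus covariate, 0.08 against control 3 alone and 0.20 with age as a covariate. Gnb2 and Gnb4 stood at log2 fold changes of 0.04 with an SE of 0.06 and of -0.08 with an SE of 0.11.

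The Gγ genes divided evenly, with 5 above and 5 below 0. These short, lipid-modified proteins hold the Gβγ pair at the membrane. Gng2, the most abundant, was at 105, 114 and 123 CPM in n-Braf libraries 1 to 3, against 114, 127 and 111 CPM in control libraries 1 to 3, with overlapping groups (log2 fold change -0.04, SE 0.08, quasi-likelihood adjusted p = 0.972). Gng2 (ENSMUSG00000043004) lies on chromosome 14 at 19872559 to 19977627. Gng3, a neuronal Gγ gene, and Gng7, the partner of Gαolf in striatum, stood at log2 fold changes of 0.11 with an SE of 0.10 and of 0.11 with an SE of 0.08. Gng12 was at 0.06 (SE 0.07), Gng13, known from taste cells and retina, at 0.11 (SE 0.14) and Gng4 at 0.10 (SE 0.22). Gng5 and Gng10 were at -0.14 (SE 0.13) and -0.04 (SE 0.15). Gng11 had 1.64 to 2.42 CPM in the n-Braf libraries and 1.91 to 3.54 CPM in the control libraries, and its highest library was control 1.

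Gng8, known from olfactory and vomeronasal neurons, had the smallest p of the Gγ genes and the log2 fold change farthest from 0 of all members, on very few counts. It had 8, 4 and 11 counts in n-Braf libraries 1 to 3, against 14, 21 and 8 counts in control libraries 1 to 3, so the groups overlapped. The log2 fold change was -1.11 (SE 0.53, unadjusted p = 0.0666, quasi-likelihood adjusted p = 0.769). Gng8 (ENSMUSG00000063594) lies on chromosome 7 at 16891786 to 16895436. Against control 3 alone the log2 fold change was -0.32, and with age as a covariate it was -2.29, where the other alternatives lay between.

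Several of these genes share exon bases with neighbours. Gng10 shares 72.0% of its exon bases with a gene on the same strand, Gng13 shares 51.6% with Chtf18 and Gng3 24.2% with Bscl2 on the opposite strand. The strand setting of the authors' counting was not given in the sources used here, so reads of the opposite-strand pairs may have been split between them. For Gng10 a strand setting could not separate the pair. In 12 of the 44 genes at least 1 library had a count that was not whole. Gng13 and Gng3 were among them, in 6 libraries each, and Gng10 was not.

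Per kilobase of exon, the same gene led the Gβ, the Gγ and the RGS family in both groups. Levels between genes are compared here as TMM-scaled CPM divided by the length of all exons of the protein-coding transcripts, which understates the level of a gene whose exons are not all used in one transcript. Gnb1 was the highest of all, at 121 ± 6.84 CPM per kb in n-Braf and 111 ± 3.50 CPM per kb in control (SD, n = 3 each), and took 71.4% of the Gβ sum in n-Braf and 70.8% in control. Gnb2 followed with 16.6% in n-Braf and 17.4% in control. Of the Gα genes, Gnao1 was at 56.3 ± 2.41 CPM per kb in n-Braf and 50.8 ± 2.13 CPM per kb in control, and Gnas at 53.0 ± 2.59 CPM per kb in n-Braf and 52.8 ± 0.854 CPM per kb in control. The ranges of mean ± SD of these neighbours in the order overlapped in each group. Gnai2, Gnai1 and Gnaq came next, at 45.0 ± 2.70, 31.1 ± 1.64 and 35.4 ± 2.35 CPM per kb in n-Braf and at 46.3 ± 2.37, 32.1 ± 1.87 and 31.3 ± 2.19 CPM per kb in control. Gnai1 and Gnaq did not differ beyond their spread in control.

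By class, Gi/o genes made up 53.0% ± 0.651 of the Gα sum per kb in n-Braf and 53.4% ± 1.15 in control. The Gs genes made up 20.3% ± 0.550 in n-Braf and 20.9% ± 0.280 in control, the Gq genes 19.2% ± 0.933 in n-Braf and 18.1% ± 0.851 in control, and the G12/13 genes 7.58% ± 0.593 in n-Braf and 7.67% ± 0.504 in control (SD, n = 3 each). The differences between these shares were of the order of the spread between mice. Among the Gγ genes Gng2 (26.0 ± 2.14 CPM per kb in n-Braf, 26.8 ± 1.89 in control) and Gng3 (22.9 ± 3.21 in n-Braf, 21.2 ± 0.746 in control) led. Among the RGS genes Rgs4 (40.5 ± 2.93 CPM per kb in n-Braf, 34.4 ± 2.77 in control) and Rgs7 (34.2 ± 1.22 in n-Braf, 31.1 ± 3.59 in control) led, ahead of Rgs5 at 16.6 ± 1.55 CPM per kb in n-Braf and 16.9 ± 1.34 in control. Rgs8, at 6.31 ± 0.258 CPM per kb in n-Braf and 5.35 ± 0.416 in control, ranked 8 of 17 RGS genes by the control mean.

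**Figure D3:**
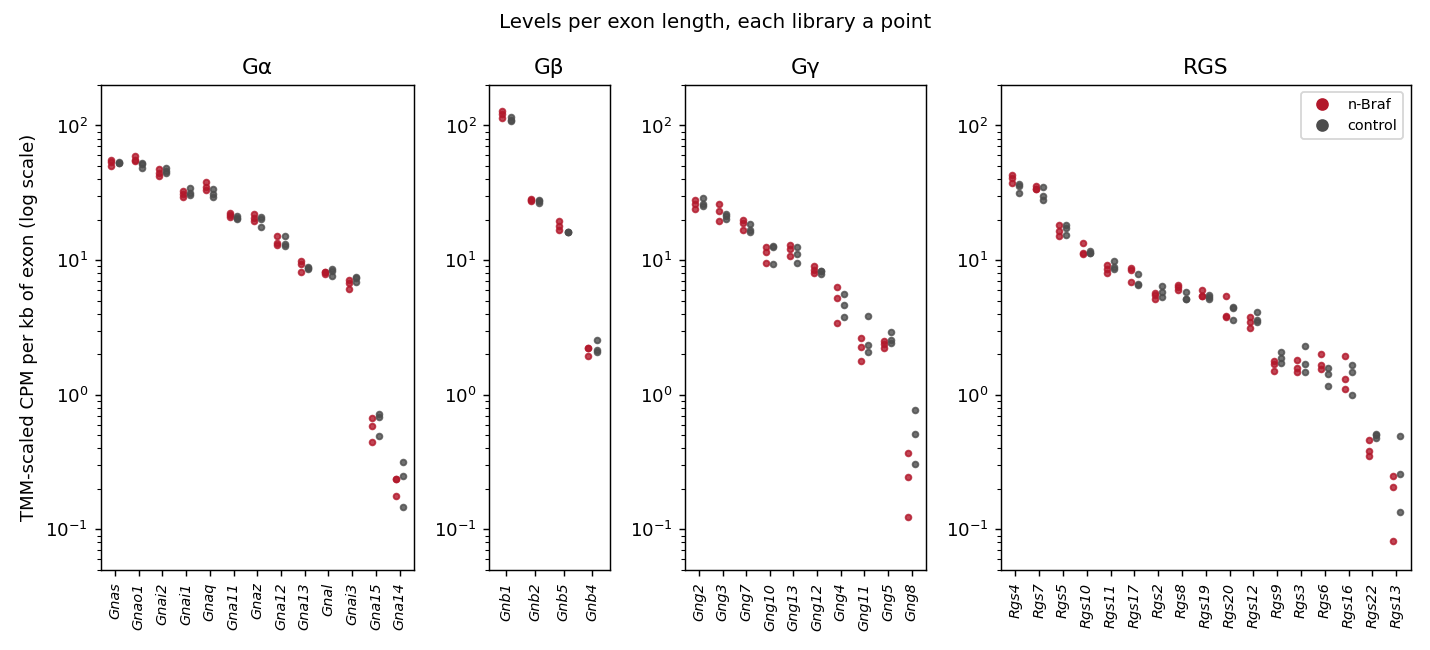
TMM-scaled CPM per kilobase of exon on a log axis for every member, each library a point, n-Braf left of control, ordered within each family by the control mean. Gnb1 lies near 121 CPM per kb in n-Braf and 111 in control, while Gna14, Gna15, Gng8, Rgs13 and Rgs22 lie below 1 in every library.

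By family, the median log2 fold change was 0.0064 for Gα (7 of 13 above 0), 0.08 for Gβ (3 of 4), 0.01 for Gγ (5 of 10) and 0.06 for RGS (9 of 17). The Gα sum was 295.8 to 305.8 CPM per kb in n-Braf libraries and 289.8 to 294.8 in control libraries, without overlap. The Gβ sum was 162.9 to 174.8 CPM per kb in n-Braf and 154.3 to 160.2 in control, without overlap. The Gγ and RGS sums overlapped. These sums rest mostly on the abundant genes, and their differences were not tested. All 44 members had a median of 0.03 with 24 above 0, which is 54.5% against 49.0% of all genes, whose median was -0.0042. The direction went with the level. Of the 22 members with a mean of at least 30 CPM 17 were higher in n-Braf (77.3%, median 0.08), and of the 22 below 30 CPM 7 were (31.8%, median -0.11). Among all genes 65.3% of those at 30 CPM or more were higher in n-Braf (median 0.04) and 43.4% of those below it (median -0.03), so the whole transcriptome had the same tilt. The level of 30 CPM was chosen after the values were seen, and whether the members' tilt exceeds that of all genes was not tested.

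**Figure D4:**
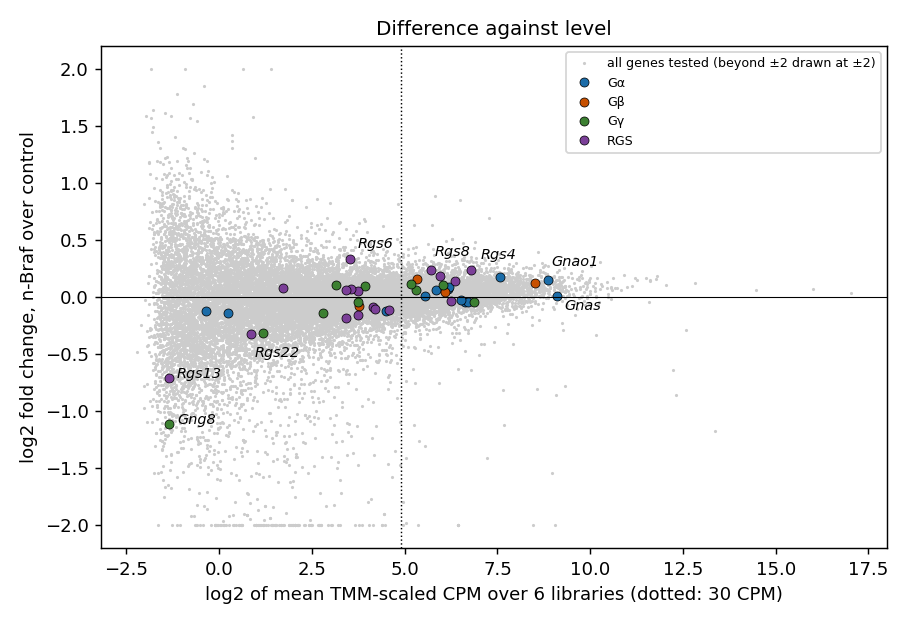
Log2 fold change, n-Braf over control, against the log2 of the mean TMM-scaled CPM over 6 libraries, with all genes tested in grey and the members coloured by family; the dotted line is 30 CPM. To the right of the line 17 of 22 members lie above 0 and to the left 7 of 22.

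Other genes of G protein signalling also stayed short of the threshold. Of 43 listed receptor kinases, arrestins, chaperones, anchors and effectors 39 were tested, 26 were above 0 and 13 below, and the median log2 fold change was 0.04. By edgeR's quasi-likelihood test 0 rose and 0 fell at an adjusted p of 0.05, while at an unadjusted p under 0.05 there were 2 higher (3.09% of all genes were) and 2 lower (3.73% of all genes were). Libraries of the groups did not overlap, with n-Braf higher, for Arhgef11, Gpr158, Grk6, Plcb2 and Trio. They did not overlap, with n-Braf lower, for Axin1, Axin2, Gpr179, Gprin3 and Grk4. These genes were a larger share of the 39 tested than the 11.5% of all genes that did not overlap. This held for the higher ones (6.09% of all genes) and for the lower ones (5.44% of all genes). The excess over all genes was not tested. Grk4, a receptor kinase gene, had 3.95 ± 0.275 CPM in the n-Braf libraries and 5.22 ± 0.719 CPM in the control libraries (log2 fold change -0.40), and Axin2, a Wnt pathway gene with an RGS fold, had 25.5, 24.2 and 25.2 CPM in n-Braf libraries 1 to 3, against 28.7, 29.3 and 26.9 CPM in control libraries 1 to 3 (-0.18). Arhgef11, an effector gene of Gα12/13, had 98.6 ± 1.44 CPM in the n-Braf libraries and 90.1 ± 1.20 CPM in the control libraries (0.13), and Grk6, another receptor kinase gene, had 37.8 ± 2.01 CPM in the n-Braf libraries and 33.8 ± 0.280 CPM in the control libraries (0.16; SD, n = 3 each). The adjusted p-values of these 4 genes lay between 0.719 and 0.732 in the quasi-likelihood test.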

How the data were processed

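Hippocampal RNA of 6 mice was sequenced, 1 library each, per the labels. Per the submitters' processing notes, bcl2fastq 2.20, fastp 0.20.1, STAR, RSEM and edgeR 3.36.0 were used with mm10; no version of STAR or RSEM, annotation or strand setting is stated there. Per-gene expected counts came from the table that the authors deposited. It further holds, as the authors deposited them, a log2 fold change, a mean log2 CPM, a p-value and its adjusted form, of which the last alone is quoted.

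Expected counts were rounded. filterByExpr (edgeR 4.0.16, R 4.3.3, minimum count 10) kept 20604 genes. Each was tested with TMM scaling and edgeR's quasi-likelihood test, group as the only term, with Benjamini-Hochberg adjustment over all genes and a threshold of 0.05. The SE is the absolute log2 fold change over the square root of the F statistic. The code was tested on simulated data. Exon lengths and coordinates are from GENCODE M21 (GRCm38), promoters from RefSeq.

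Genes given library by library had an unadjusted p under 0.05 or groups without overlap, or the largest CPM or smallest p of a family; Rgs6 and Rgs17 were added after their values were seen, and the remaining members are named to account for each. Members and lists were chosen with earlier results of these data known. Each library held 25227112 to 31832245 counts, which leaves the low genes imprecise. Alternatives were other scalings, DESeq2 1.42.0, limma-voom (limma 3.58.1), edgeR's exact test, other filters, a replicate block, age, an adjusted p of 0.1, and leaving out libraries or abundant genes. Omitting controls 1 and 2 together was chosen after seeing the data, as were covariates for choroid plexus or neocortex markers.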

Additional observations from a re-analysis of the deposited data

How the results depend on the processing

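Over 21 alternatives 0 members passed the adjusted p in either direction, and the lowest adjusted p was 0.405, for Rgs4 with DESeq2. The number of members above 0 lay between 21 and 27. Of the 44 members 25 kept their direction in every alternative that tested them, among them Rgs8, Rgs4, Gnaq, Gnao1, Gnb5, Gnb1, Rgs22 and Gng8, and 19 had the other sign in at least 1. Gnas was at -0.011 with library size alone, at -0.010 with the neocortex covariate and between -0.025 and 0.041 without 1 library. Gng2 was at 0.038 without controls 1 and 2, at 0.027 and 0.013 with the choroid plexus and neocortex covariates, and between -0.11 and 0.016 without 1 library. The other 17 are given by their value farthest on the other side. It came without 1 library for Gna12 (-0.058), Gna13 (-0.0026), Gna15 (0.0036), Gnal (0.016), Gng10 (0.060), Gng11 (0.0088), Rgs16 (-0.18) and Rgs20 (-0.13), and with age for Gnai1 (0.036) and Rgs10 (-0.050). It came with the choroid plexus covariate for Gna14 (0.59), Gnb4 (0.044), Rgs3 (0.20), Rgs5 (0.13) and Rgs7 (-0.061), and without controls 1 and 2 for Gng13 (-0.066) and Gng4 (-0.16). The Gα, Gγ and RGS medians also crossed 0. The Gα median was 0.049 without controls 1 and 2, and it lay between -0.025 and 0.030 without 1 library. The Gγ median was 0.058 at a mean CPM of at least 1, -0.047 with age, -0.043 without controls 1 and 2, -0.021 with the choroid plexus covariate and between -0.025 and 0.053 without 1 library. The RGS median was -0.015 with age, -0.0062 without controls 1 and 2, 0.0094 and 0.0059 with the choroid plexus and neocortex covariates, and between -0.086 and 0.068 without 1 library. The cause was not tested. Without controls 1 and 2, the spread of the lone control 3 is taken from the n-Braf libraries. With the replicate block Rgs8 had a log2 fold change of 0.24 (quasi-likelihood adjusted p = 0.702) and 0 members were called; deviations of same-numbered libraries from their group means correlated at 0.10, -0.046 and -0.014 over genes, and not every library correlated best with its own number, so the number is not taken as a pairing. Nothing says that mice shared a litter or batch. Depth limits Gng8, Rgs13, Gna14 and Gna15.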

Other observations

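On chromosome 1, 3 pairs of RGS genes lie next to or near each other, and the ratio within each pair overlapped between n-Braf and control. Rgs4 and Rgs5 are 45.7 kb apart. The log2 ratio of Rgs4 over Rgs5 averaged 0.66 in n-Braf and 0.40 in control, and the groups overlapped (exact permutation test, two-sided p = 0.2, where 0.1 is the smallest that 3 against 3 libraries can give). Rgs8 and Rgs16 are 40025 bases apart, with log2 ratios of 4.09 in n-Braf and 3.93 in control (exact permutation p = 0.9). Rgs2 and Rgs13 are 134 kb apart, with log2 ratios of 6.05 in n-Braf and 5.47 in control (exact permutation p = 0.6). Benjamini-Hochberg adjustment over the 3 pairs gave 0.6, 0.9 and 0.9 for these exact p-values. The pairs were chosen after the values were seen.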
